A study of Mus musculus with 12 samples.

Results

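Levels of 10 circadian clock genes, Per1, Per2, Per3, Cry1, Cry2, Clock, Npas2, Nr1d1, Nr1d2 and Dbp, were examined in bulk mouse retina by RNA-seq. The members were taken by gene symbol, and each of the 10 had a single row among the 25124 genes listed.

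The circadian clock is a loop of transcription and repression that runs in nearly every cell. CLOCK or its relative NPAS2 pairs with the product of Arntl (BMAL1) and activates genes that carry E-boxes, among them the Per, Cry, Nr1d and Dbp genes. PER and CRY proteins then repress that activation, while REV-ERBα and REV-ERBβ, the nuclear receptors encoded by Nr1d1 and Nr1d2, repress Arntl, and DBP carries the rhythm to output genes through D-boxes. The retina holds its own clock, which sets daily rhythms in photoreceptors, dopamine and melatonin. Because the RNA of these genes cycles over the day, a level taken at a single time depends on the hour of collection, and that hour was not given in the sources used here.

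All 12 libraries came from wildtype C57BL/6J mice, 2 libraries in each of 6 groups, and each library was made from bulk retina with no cell sorting. In the single-IOP experiment the intraocular pressure (IOP) of 1 eye was raised to 30 mmHg for 1 hour at an age of 3 or 18 months. The retinas were taken on day 2, and the untreated fellow eyes gave the groups 3mo control and 18mo control beside 3mo IOP and 18mo IOP. In the recurring-IOP experiment mice aged 3 months at the start had 4 such elevations in 1 eye, which gave the groups 4xIOP and 4xIOP control, taken on day 2 after the last. A control eye therefore came from an animal whose other eye had been treated. Levels are FPKM (fragments per kilobase of transcript, scaled to the mapped tags of the library), a level per length. Because the dependence of FPKM on transcript length differed between libraries, as described further on, an order of genes of unequal length in a library is approximate. Mapped tags per library lay between 39766226 and 59455061, with 44.2% to 71.5% of them in exons. In bulk tissue, fewer cells of a type and less RNA per cell cannot be told apart.

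Promoter windows of the members show which clock elements lie beside the start of each gene, since E-boxes and D-boxes are how the loop reaches them. RefSeq windows of GRCm38.p6, the assembly called mm10, run from 250 bases before to 50 bases within a transcript, and 9 of the 10 members matched, in 12 windows. Per2 is not among the windows used. The letters searched on both strands were the E-box CACGTG, the E′-box CACGTT, the D-box TTANGTAA, the ROR element core TAGGTCA and the cAMP response element TGACGTCA. None of the matches overlapped another. In the sequences below the letters in capitals are the matches, and an E′-box on the other strand reads AACGTG.
Per1 (chr11:69098699-69098998, plus strand): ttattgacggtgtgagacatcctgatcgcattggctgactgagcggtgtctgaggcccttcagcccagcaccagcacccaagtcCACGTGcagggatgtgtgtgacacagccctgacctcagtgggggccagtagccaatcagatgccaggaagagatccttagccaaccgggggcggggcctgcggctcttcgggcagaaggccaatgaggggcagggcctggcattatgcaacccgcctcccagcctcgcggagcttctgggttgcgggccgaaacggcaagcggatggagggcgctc
Per3 (chr4:151044616-151044915, minus strand): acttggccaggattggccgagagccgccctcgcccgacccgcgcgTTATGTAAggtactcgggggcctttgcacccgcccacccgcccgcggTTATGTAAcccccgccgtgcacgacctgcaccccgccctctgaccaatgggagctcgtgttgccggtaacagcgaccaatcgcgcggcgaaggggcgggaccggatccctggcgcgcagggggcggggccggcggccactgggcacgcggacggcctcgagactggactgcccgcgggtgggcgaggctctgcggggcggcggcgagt
Cry1 (chr10:85185005-85185304, minus strand): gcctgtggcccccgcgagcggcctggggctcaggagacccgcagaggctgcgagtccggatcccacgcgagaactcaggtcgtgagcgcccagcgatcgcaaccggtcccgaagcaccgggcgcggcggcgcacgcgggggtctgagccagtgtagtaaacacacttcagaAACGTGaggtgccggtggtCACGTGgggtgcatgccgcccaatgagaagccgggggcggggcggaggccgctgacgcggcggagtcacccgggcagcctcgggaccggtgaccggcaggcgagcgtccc
Cry2 (chr2:92434020-92434319, minus strand): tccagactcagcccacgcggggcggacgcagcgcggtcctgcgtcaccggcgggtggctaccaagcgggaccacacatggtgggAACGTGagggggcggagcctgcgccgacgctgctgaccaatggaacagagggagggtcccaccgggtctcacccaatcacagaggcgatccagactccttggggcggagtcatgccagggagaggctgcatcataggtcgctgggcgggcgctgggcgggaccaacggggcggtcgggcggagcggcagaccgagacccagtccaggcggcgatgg
Nr1d1 (chr11:98775328-98775627, minus strand): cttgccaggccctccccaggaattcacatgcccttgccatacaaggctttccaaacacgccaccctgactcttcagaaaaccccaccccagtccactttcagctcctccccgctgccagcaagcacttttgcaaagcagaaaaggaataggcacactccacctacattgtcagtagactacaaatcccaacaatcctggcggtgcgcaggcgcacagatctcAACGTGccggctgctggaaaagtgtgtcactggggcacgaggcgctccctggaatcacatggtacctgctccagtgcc
Nr1d2 (chr14:18239057-18239356, minus strand): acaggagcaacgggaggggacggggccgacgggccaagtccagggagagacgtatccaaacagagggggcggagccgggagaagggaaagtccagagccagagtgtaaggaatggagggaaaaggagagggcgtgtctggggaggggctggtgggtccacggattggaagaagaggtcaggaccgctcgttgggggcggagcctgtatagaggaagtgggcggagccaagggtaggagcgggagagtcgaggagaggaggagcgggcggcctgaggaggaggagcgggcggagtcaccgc

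Positions were counted with the first transcribed base as 0. An E-box began at -166 in Per1 and at -60 in Cry1, and was found in 7.15% of 32851 windows of the mouse genome. An E′-box began at -79 in Cry1, -166 in Cry2 and -28 in Nr1d1 and was found in 4.68% of all windows. Per3 held 2 D-boxes, at -205 and -158, where 2.32% of all windows held any. The ROR element core (2.61% of all windows) and the cAMP response element (1.79%) matched none of the 12 windows. Nr1d2 is shown for contrast with Nr1d1, because its window held none of the 5 motifs. The Per1 window printed lies upstream of the counted Per1 transcript, whose own window held none of them. A match is a description of the letters and says nothing of binding in these retinas.

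The clock genes covered a wide span of levels in the young retina. In the 3mo control libraries Nr1d2 (42.8 and 47.9 FPKM) and Dbp (43.0 and 45.1 FPKM) were the highest and overlapped each other, and Nr1d1 came next. Clock (12.1 and 16.2 FPKM) and Cry1 (11.8 and 12.5 FPKM) followed and overlapped, as did Per3, Per1 and Cry2 below them, all between 4.98 and 10.8 FPKM. Per2 (1.66 and 2.93 FPKM) and Npas2 (0.156 and 0.203 FPKM) were the lowest. In the 18mo control libraries the order was another: Nr1d1 was the highest at 74.8 and 78.8 FPKM, above both libraries of Dbp (54.9 and 68.5 FPKM) and of Nr1d2 (40.2 and 41.5 FPKM). Per1, Cry2 and Per3 then stood above Cry1 and Clock, with Per1 at 17.7 and 18.0 FPKM, above both libraries of Cry2 and Per3, which overlapped each other.

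**Figure D1:**
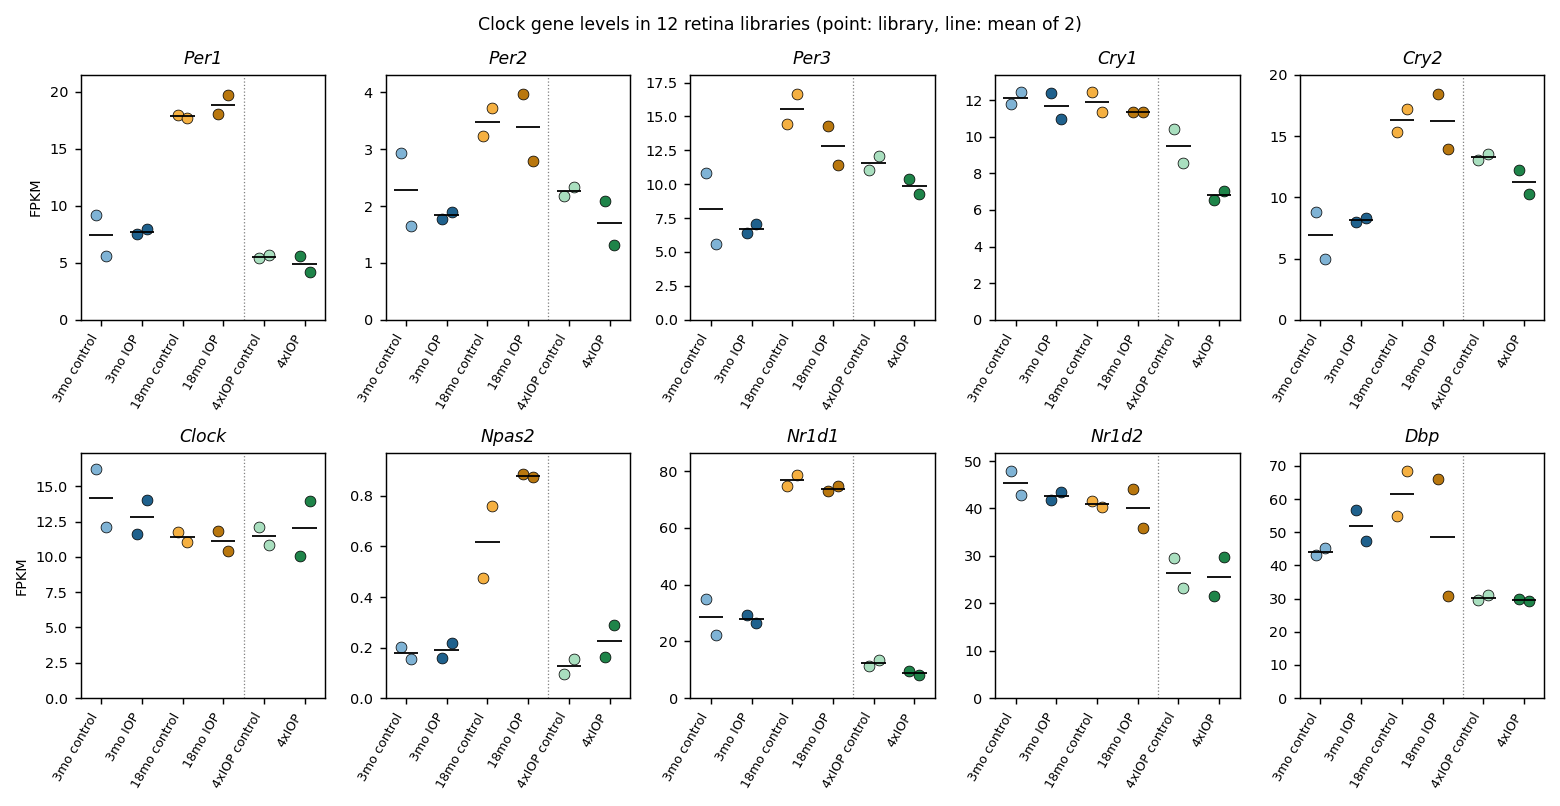
FPKM of the 10 clock genes (y axis, each panel from 0) in the 6 groups (x axis), with a point for each library and a line at the mean of 2; the dotted line separates the experiments, which were normalized separately. Per1, Per3, Cry2, Nr1d1 and Npas2 were higher in all 4 libraries of 18mo retinas than in all 4 of 3mo retinas, while Cry1 lay between 11.0 and 12.5 FPKM in these 8.

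The first question was how the retinal clock genes differ between young and old animals. Between the control retinas, 3 of the 9 members tested were called higher at 18mo, Nr1d1, Per1 and Cry2, and none was called lower. Calling a gene needed both a limma p of 0.05 or less after Benjamini-Hochberg adjustment over the 13731 genes tested and a log2 fold change, on the log2(FPKM + 0.5) scale, of 1 or more in size. Of all genes tested, 11.6% were called higher and 11.6% lower, 23.2% in either direction, so that calls with age were frequent in these libraries. The median log2 fold change of the members was 0.55, against 0.16 for all genes tested. With median-of-ratios size factors the median of all genes was 0.01, and the same 3 members were called. With the trend of FPKM with transcript length removed, described further on, 1 member was called, Nr1d1.

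Among the repressors of Arntl, Nr1d1 (NM_145434, chromosome 11, 98767932 to 98775377) had 34.9 and 22.2 FPKM in 3mo and 74.8 and 78.8 FPKM in 18mo control retinas. Both 18mo libraries were above both 3mo libraries, with means of 28.6 ± 8.92 and 76.8 ± 2.84 FPKM (SD, n = 2 each). The ratio of the means was 2.69, and the log2 fold change was 1.45 (SE 0.22, limma adjusted p = 0.00552). Its paralog Nr1d2 (NM_011584, chromosome 14, 18204056 to 18239106) behaved otherwise. Its levels were 47.9 and 42.8 FPKM at 3mo and 41.5 and 40.2 FPKM at 18mo, lower in both 18mo libraries. The log2 fold change of Nr1d2 was -0.15 (95% interval -0.55 to 0.26, limma adjusted p = 0.511), and it turned to 0.20 with quantile normalization. Nr1d1 overlaps Thra on the opposite strand, and tags were counted by strand.

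The period genes encode the core of the repressor complex. Per1 (NM_001159367, chromosome 11, 69100152 to 69109957) had 9.21 and 5.60 FPKM at 3mo and 18.0 and 17.7 FPKM at 18mo. The 18mo libraries lay close together and well above both 3mo libraries, 17.8 ± 0.196 against 7.41 ± 2.55 FPKM (SD, n = 2 each), and the log2 fold change was 1.25 (SE 0.22, limma adjusted p = 0.0067). Per3 (NM_001289877, chromosome 4, 151003655 to 151044665) had 10.8 and 5.57 FPKM at 3mo and 14.4 and 16.7 FPKM at 18mo. Its groups did not overlap either, but its log2 fold change of 0.95 (SE 0.28, limma adjusted p = 0.0278) was under the fold threshold. Per2 (NM_011066, chromosome 1, 91415982 to 91459328), the lowest of the 3, had 2.93 and 1.66 FPKM at 3mo and 3.23 and 3.73 FPKM at 18mo. The log2 fold change of Per2 was 0.55 (95% interval -0.06 to 1.15, limma adjusted p = 0.118). It was 0.88 (limma adjusted p = 0.0191) without 3mo control replicate 1, 0.215 without 3mo control replicate 2 and 0.15 with the length trend removed.

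The cryptochromes, the partners of PER in repression, split as the Nr1d genes did. Cry2 (NM_009963, chromosome 2, 92403647 to 92434069) had 8.81 and 4.98 FPKM at 3mo and 15.4 and 17.2 FPKM at 18mo, with no overlap. Its means were 6.90 ± 2.71 and 16.3 ± 1.32 FPKM (SD, n = 2 each), and its log2 fold change was 1.23 (SE 0.26, limma adjusted p = 0.00977). Cry1 (NM_007771, chromosome 10, 85131700 to 85185054) had 11.8 and 12.5 FPKM at 3mo and 12.5 and 11.4 FPKM at 18mo. Its groups overlapped, and its log2 fold change was -0.03, with a 95% interval from -0.39 to 0.33 that leaves out a change of 2-fold in either direction. Cry2 overlaps D930015M05Rik on the opposite strand.

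Neither activator was called. Clock (NM_001305222, chromosome 5, 76209868 to 76303502) had 16.2 and 12.1 FPKM at 3mo and 11.8 and 11.0 FPKM at 18mo, lower in both 18mo libraries. Its log2 fold change was -0.29 (95% interval -0.74 to 0.17, limma adjusted p = 0.256), and it was -0.49 when 3mo control replicate 2 was left out and -0.08 when replicate 1 was. Npas2 (NM_008719, chromosome 1, 39194272 to 39363240), which can stand in for Clock, had 0.203 and 0.156 FPKM at 3mo and 0.477 and 0.761 FPKM at 18mo. These values rest on 31 to 148 reads, and the mean of Npas2 over the libraries was under the 0.5 FPKM needed for a test. With no filter on low values its log2 fold change was 0.71 (SE 0.15, limma adjusted p = 0.0219), which was not called and is understated by the added 0.5. Arntl (NM_001368412, chromosome 7, 113207511 to 113314126), the partner of both and the gene that REV-ERB proteins repress, had 30.4 and 26.8 FPKM at 3mo and 41.1 and 33.7 FPKM at 18mo. Its log2 fold change was 0.38 (95% interval -0.09 to 0.84, limma adjusted p = 0.154).

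The output gene Dbp (NM_016974, chromosome 7, 45705247 to 45710203) had 43.0 and 45.1 FPKM at 3mo and 54.9 and 68.5 FPKM at 18mo. Both 18mo libraries were above both 3mo libraries, but the log2 fold change of 0.47 (95% interval -0.28 to 1.22, limma adjusted p = 0.261) did not pass. Dbp overlaps Sphk2 on the opposite strand. In all, 6 of the 9 members tested were higher without overlap and 2, Clock and Nr1d2, were lower without overlap. Over all genes tested these shares were 45.7% and 32.8%.

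Age was compared again in the IOP retinas. These are the treated eyes of mice whose untreated fellow eyes gave the control groups, so they may come from the same animals as the control retinas and share their collection, and the second comparison is not an independent repeat. Here 2 of 9 members, Nr1d1 and Per1, were called higher and none lower, against 10.2% and 11.6% of all genes tested. Nr1d1 had 29.3 and 26.3 FPKM in the 3mo IOP libraries and 72.8 and 74.9 FPKM in the 18mo IOP libraries, a log2 fold change of 1.40 (SE 0.22, limma adjusted p = 0.00575). Per1 had 7.54 and 7.92 FPKM and then 18.0 and 19.7 FPKM, a log2 fold change of 1.23 (SE 0.22, limma adjusted p = 0.0077). For both genes the libraries of an age lay close together and far from those of the other age. Cry2 went from 7.97 and 8.31 FPKM to 18.4 and 14.0 FPKM, and its log2 fold change of 0.94 (limma adjusted p = 0.024) was under the fold threshold, as was that of Per3 (0.88, limma adjusted p = 0.0391). The difference of Cry2 between its log2 fold change with age in IOP and in control retinas was -0.29 (95% interval -1.14 to 0.56, limma adjusted p = 1).

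The other members in IOP retinas were not called with age. Per2 had 1.77 and 1.90 FPKM at 3mo and 3.98 and 2.80 FPKM at 18mo, without overlap (log2 fold change 0.72, limma adjusted p = 0.0565). Cry1, Clock and Nr1d2 had log2 fold changes of -0.04, -0.19 and -0.10, and the groups of each overlapped. Quantile normalization turned that of Nr1d2 to 0.25, and with the length trend removed Nr1d2 had -0.45 (limma adjusted p = 0.0288) and Clock -0.74 (limma adjusted p = 0.00501), both under the fold threshold in size. Dbp was the least settled member, with 56.8 and 47.3 FPKM at 3mo and 66.0 and 30.9 FPKM at 18mo. Its log2 fold change of -0.20 (95% interval -0.95 to 0.56) turned to 0.35 without 18mo IOP replicate 2, to 0.19 with quantile normalization and to 0.06 with the length trend removed. Npas2 had 0.159 and 0.219 FPKM at 3mo and 0.885 and 0.874 FPKM at 18mo, from 36 to 216 reads, and was called with no filter on low values (log2 fold change 1.00, limma adjusted p = 0.0133). Of the 9 members tested, 5 were higher without overlap and 0 lower, where 43.2% and 34.5% of all genes were.

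**Figure D2:**
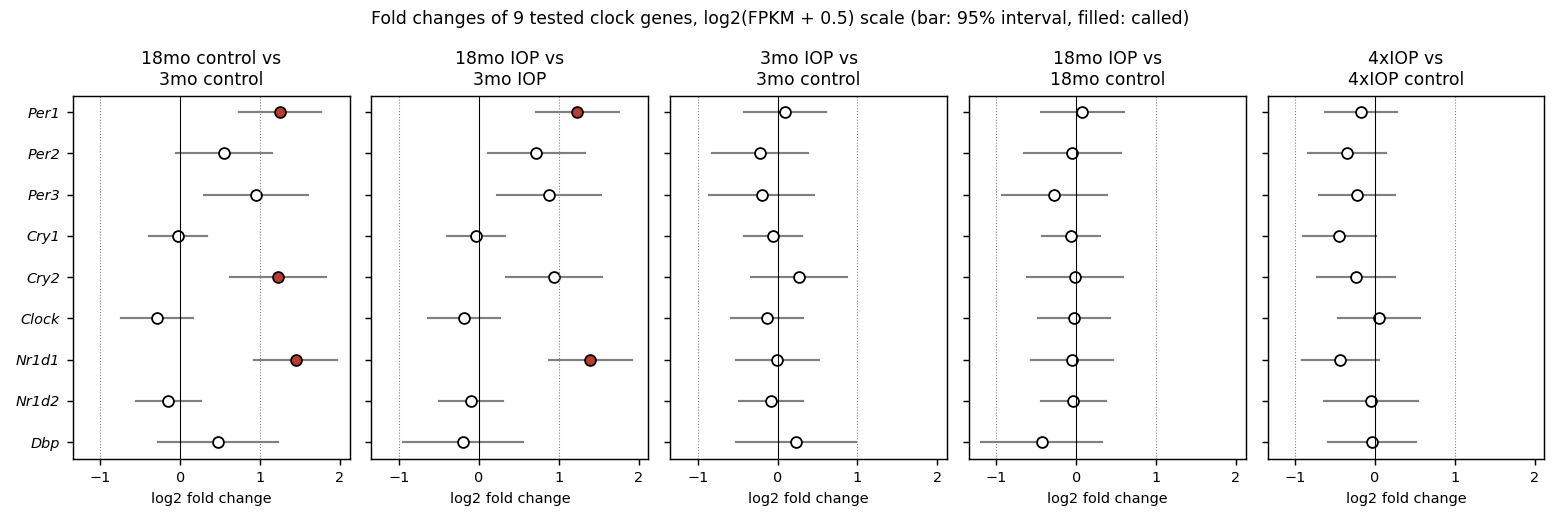
Log2 fold changes (x axis, on the log2(FPKM + 0.5) scale) of the 9 clock genes tested (y axis) in 5 comparisons, with bars for the 95% interval; filled points were called and dotted lines mark the fold threshold of 1. Calls appear in the panels of age, for Per1, Cry2 and Nr1d1 in control and Per1 and Nr1d1 in IOP retinas, and no member was called in the 3 panels of IOP against control.

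Ratios of paralogs within a library do not depend on the factor by which that library was scaled, though a dependence on transcript length stays in them. The ratio of Nr1d1 to Nr1d2 was 0.727 and 0.520 in young control retinas and rose 3.06-fold to 1.80 and 1.96 in old ones. In IOP retinas the ratio was 0.701 and 0.604 at 3mo and 1.65 and 2.09 at 18mo, 2.85-fold. The predominant receptor transcript was thus Nr1d2 in all 4 libraries of 3mo retinas and Nr1d1 in all 4 of 18mo retinas. Cry2 to Cry1 moved from 0.746 and 0.400 to 1.23 and 1.52 in control retinas (2.50-fold) and from 0.642 and 0.758 to 1.62 and 1.24 in IOP retinas (2.03-fold). Here too the order of the paralogs was opposite in the single-IOP libraries of the 2 ages. In the recurring-IOP experiment, whose mice were aged 3 months at its start, the ratio of Cry2 to Cry1 was 1.26 and 1.58 in 4xIOP control and 1.87 and 1.45 in 4xIOP retinas, above all 4 libraries of 3mo retinas and in the range of the 18mo libraries or higher. The ratio of Nr1d1 to Nr1d2 was 0.379 and 0.574 and then 0.448 and 0.277 there, under 1 as in the 3mo libraries. Per1 exceeded Per2 in every library, by 3.15 and 3.38 times in 3mo control and by 5.56 and 4.75 times in 18mo control retinas. No ratio overlapped between ages within a treatment of the single-IOP experiment. An exact two-sided permutation test of 2 libraries against 2 gave p = 0.333 for each ratio, the smallest it can give, so it cannot pass a threshold.

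**Figure D3:**
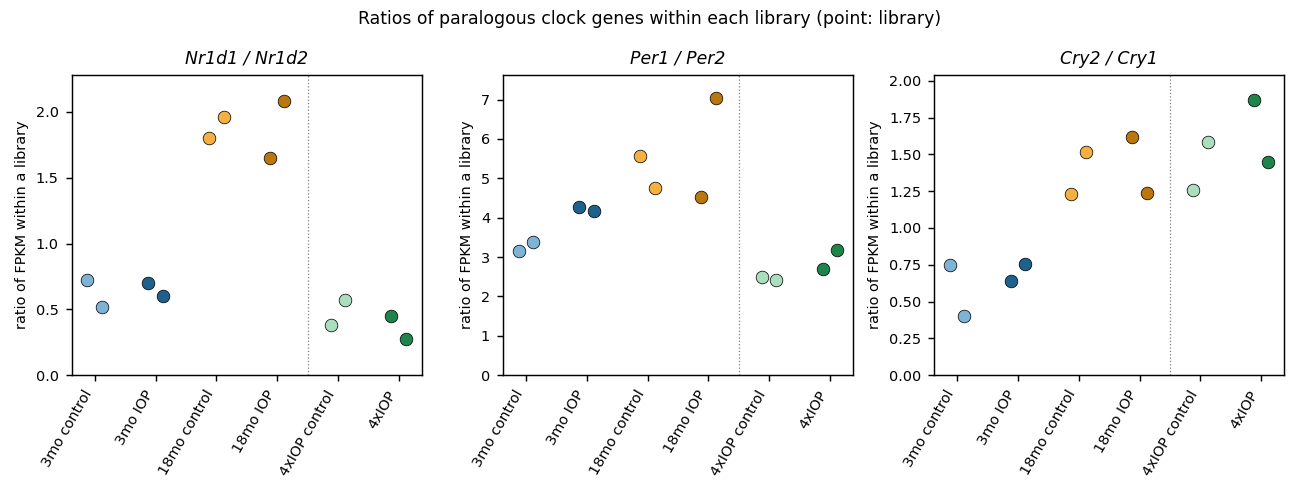
Ratio of FPKM of paralogous clock genes within each library (y axis, from 0) in the 6 groups (x axis), with a point for each library. The ratio of Nr1d1 to Nr1d2 was under 1 in the 4 libraries of 3mo retinas and at 1.65 or more in the 4 of 18mo retinas, and it was 0.574 or less in the 4 libraries of the recurring-IOP experiment, where that of Cry2 to Cry1 was 1.26 or more.

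A list of 23 other genes of the clock loop and its regulators was tested in the same fits. Between control retinas, 6 were called higher and 1 lower at 18mo, and 17 of the 23 had a log2 fold change above 0, with a median of 0.64. Over all genes tested 11.6% were called higher and 11.6% lower, and the median was 0.16. Usp2, a deubiquitinase that acts on clock proteins, had the largest rise, from 13.6 to 43.0 FPKM in the mean (log2 fold change 1.64, SE 0.19, limma adjusted p = 0.00378). Bhlhe40 and Bhlhe41, which encode the E-box repressors DEC1 and DEC2, rose by 1.38 and 1.01 on the log2 scale. Ciart, another repressor of the activators, rose by 1.21, Nfil3, the competitor of DBP at D-boxes, by 1.12, and Csnk1d, a kinase of PER proteins, by 1.03. Tipin, a partner of Timeless at replication forks, fell by 1.24 (limma adjusted p = 0.00493).

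In IOP retinas 3 of these 23 genes were called higher with age, Usp2 (1.65), Bhlhe40 (1.23) and Nfil3 (1.11), and Tipin lower (-1.22), all log2 fold changes. The share called higher was near the 10.2% of all genes tested, and 11.6% of all genes were called lower. The calls of Bhlhe41 and Csnk1d in control retinas lay at the fold threshold: they were lost with a pseudocount of 1, either rescaling or the length trend removed, as was that of Nfil3 with either rescaling. Leaving out 3mo control replicate 2 or either 18mo control replicate also ended the calls of Bhlhe41 and Csnk1d, leaving out 18mo control replicate 1 that of Ciart, and leaving out 18mo control replicate 2 that of Nfil3. In IOP retinas Nfil3 lost its call with quantile normalization and without 18mo IOP replicate 2, and both Nfil3 and Bhlhe40 did without 3mo IOP replicate 2. Usp2 and Tipin kept theirs under all 16 alternatives in control and in IOP retinas. In place of the 7 called in control retinas, 4 were called with quantile normalization. By the adjusted p alone 13 were called there, as were 45.9% of all genes tested. In place of the 4 in IOP retinas, 10 were called by the adjusted p alone, as were 42.6% of all genes tested. After single IOP 0 of the 23 were called by limma at 3mo and at 18mo, where 0.575% and 0.124% of all genes were. After recurring IOP, where 5.45% of all genes were called higher and 0.693% lower, 0 of the 23 were called too. Timeless, a partner of Tipin, was called there with a pseudocount of 0.1, with voom on recovered reads and by the adjusted p alone, and had 0.86 on the log2 scale (limma adjusted p = 0.0321), under the fold threshold, in the fit reported.

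**Figure D4:**
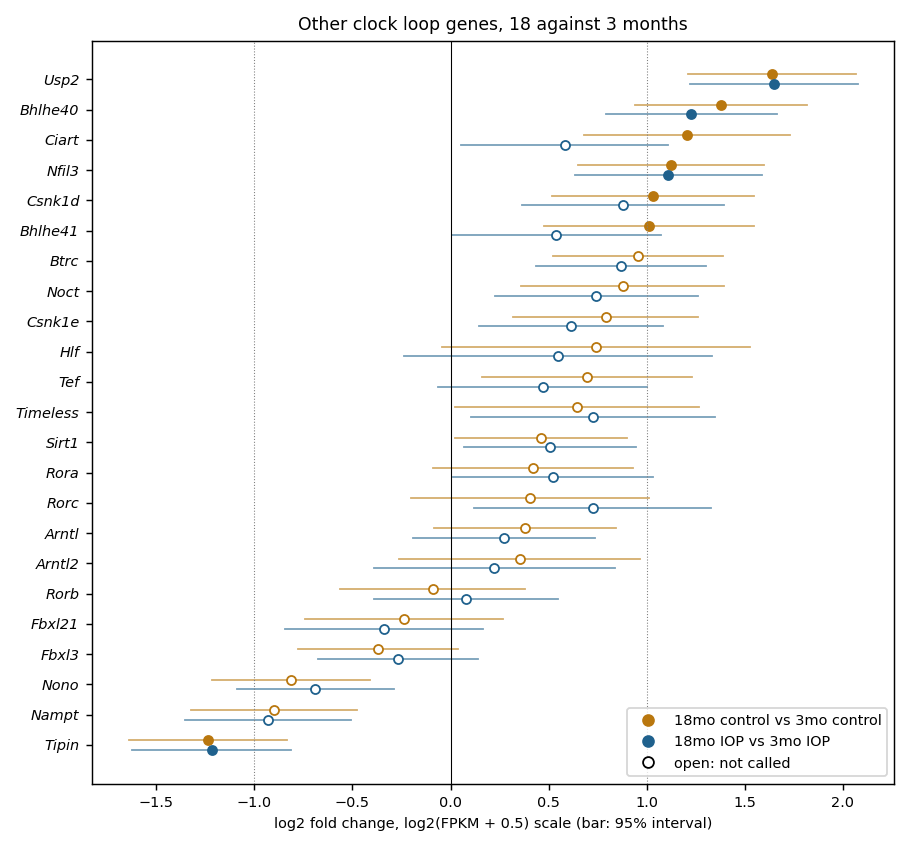
Log2 fold changes with age (x axis, on the log2(FPKM + 0.5) scale) of 23 other clock loop genes (y axis) in control and in IOP retinas, with bars for the 95% interval and filled points for called genes. Usp2, Bhlhe40 and Nfil3 were called higher and Tipin lower in both, while Arntl had 0.38 and 0.27.

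Other measures separated the libraries of the 2 ages as well. Values depended on transcript length: the median FPKM of genes with transcripts under 1000 bases was 1.36 and 3.55 times that of genes with 4000 bases or more in 3mo control libraries, 3.07 and 2.48 times in 3mo IOP libraries, and 0.909 to 1.06 times in the 4 libraries of 18mo retinas. The members are mostly long, Clock (9579 bases) longer than 97.9% of genes tested and Dbp (1672 bases) longer than 25.2%. With the trend of each library with transcript length removed, Nr1d1 stayed called with age (log2 fold change 1.29, limma adjusted p = 0.0026). Per1 (0.93, limma adjusted p = 0.00337) and Cry2 (0.98, limma adjusted p = 0.00656) were then under the fold threshold, and Clock had -0.74 (limma adjusted p = 0.004) and Nr1d2 -0.47 (limma adjusted p = 0.0223). A single library decided some of these calls. Without 3mo control replicate 2, Per1 (0.92) and Cry2 (0.85) fell under the threshold and only Nr1d1 (1.13) was called, and without 3mo control replicate 1 Per3 (1.40) was called too. Per3, at 0.95 with all libraries, had 0.50 (limma adjusted p = 0.0835) without 3mo control replicate 2 and 0.54 (limma adjusted p = 0.0363) with the length trend removed. Cry2 was also lost without 18mo control replicate 2 (1.15, limma adjusted p = 0.0646). In IOP retinas with the length trend removed, only Nr1d1 (1.27) was called, Per1 (0.88) was under the fold threshold, and Per3 had 0.41 (limma adjusted p = 0.0966). In IOP retinas, no member was called without 3mo IOP replicate 2, with log2 fold changes of 1.32 for Nr1d1 (limma adjusted p = 0.0537) and 1.27 for Per1 (limma adjusted p = 0.0551), and Per1 was lost without 3mo IOP replicate 1 (limma adjusted p = 0.0582).

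**Figure D5:**
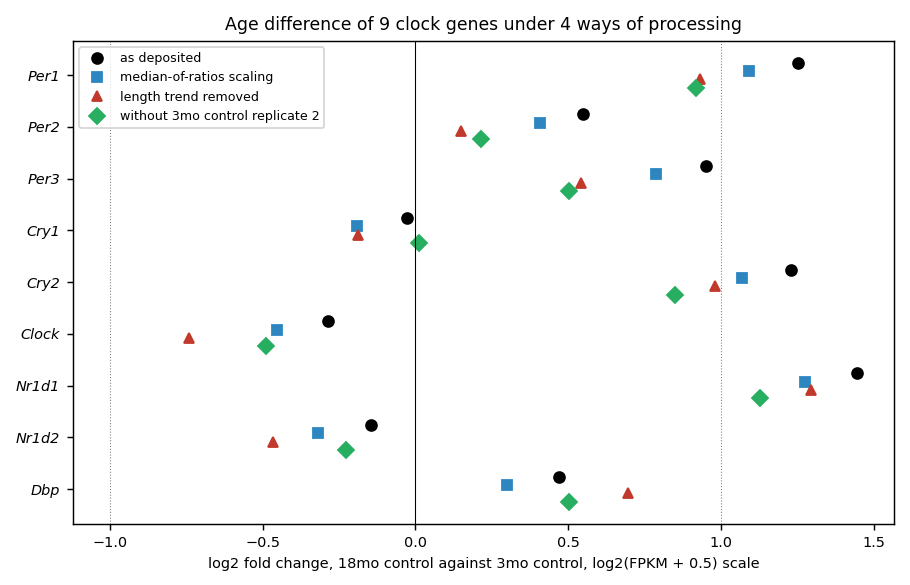
Log2 fold change of 18mo against 3mo control retinas (x axis, on the log2(FPKM + 0.5) scale) of the 9 clock genes tested (y axis) under 4 ways of processing; dotted lines mark the fold threshold of 1. Nr1d1 stayed above 1 in all 4, from 1.13 to 1.45, while Per1 and Cry2 fell under 1 with the length trend removed and without 3mo control replicate 2.

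Markers of retinal cell types also differed between the ages. In control retinas 11.6% of all genes tested were called higher with age and 11.6% lower, and 32.8% were lower without overlap. In IOP retinas 10.2% were called higher and 11.6% lower. All 8 retinal ganglion cell markers were lower without overlap in the 18mo control libraries, 5 of them called, and their summed level was 326.5 to 631 FPKM at 3mo and 35.3 to 81.7 FPKM at 18mo. All 6 tested markers of retinal pigment epithelium were called lower, 174 to 193 FPKM against 2.85 to 9.73 FPKM. Of the 6 Müller glia markers 4 were called higher, 494 to 600 FPKM against 1083 to 1373 FPKM, as were 4 of 6 bipolar and 4 of 6 vascular markers. Rod markers, the most abundant list in every library, summed to 21340 to 24150 FPKM at 3mo and 15840 to 17790 FPKM at 18mo. Of the 8 rod markers 1 was called lower. Of the early genes that answer to light, activity and cAMP, 8 of 10 were called higher in 18mo control retinas, with log2 fold changes of 6.55 for Egr1, 5.45 for Fos, 4.53 for Fosb, 3.79 for Junb, 3.04 for Nr4a1 and 2.40 for Ier2. Their summed level was 23.6 to 24.7 FPKM at 3mo and 374 to 613 FPKM at 18mo. In IOP retinas 8 were called higher and Crem lower (-1.01), at the fold threshold, and the call of Crem was lost with a pseudocount of 1 and without either 3mo IOP replicate or 18mo IOP replicate 2. The part of cell makeup and of early gene activity in the age differences of the clock genes was not tested. For transcript length, only the fits with the length trend removed, given above, were run.

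Lists of signals that reach the clock were tested as well, where 11.6% of all genes were called higher and 11.6% lower with age in control retinas. Of 11 glucocorticoid-responsive genes tested, Dusp1 (log2 fold change 3.19) and Cdkn1a (2.21) were called higher with age in control retinas, while the median of the list was 0.18. Of 8 tested genes of photoreception, dopamine and peptide signaling, the dopamine receptor gene Drd2 was called higher (1.35). Vip (-3.62) and Adcyap1 (-1.36), which encode neuropeptides of amacrine and ganglion cells, were called lower. The call of Adcyap1 was lost with a pseudocount of 1 (-0.92) and without 3mo control replicate 2 or either 18mo control replicate (limma adjusted p = 0.0505 to 0.0605), and that of Drd2 without 18mo control replicate 2 (limma adjusted p = 0.0729). In IOP retinas Dusp1 (4.04) and Cdkn1a (2.97) were again called higher, and Vip (-3.45), Adcyap1 (-1.08) and the melanopsin gene Opn4 (-1.14) were called lower, where 11.6% of all genes were. The calls of Adcyap1 and Opn4 were lost with a pseudocount of 1 and without either 3mo IOP replicate or 18mo IOP replicate 2, when Opn4 had -0.60, and that of Opn4 also in a fit of only the 2 groups. Vip kept its call with age under all 16 alternatives, in control and in IOP retinas.

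The next question was whether a single pressure elevation moved the clock genes 2 days later. At 3mo, 0 of 9 members were called by limma, where 0.575% of all genes tested were, and no member had an unadjusted p under 0.05, where 8.51% of all genes did. The members' log2 fold changes ran from -0.22 (Per2) to 0.27 (Cry2), with a median of -0.05 against 0.14 for all genes. Nr1d1, with 29.3 and 26.3 FPKM in the IOP libraries, lay between the control libraries at 34.9 and 22.2 FPKM. Its log2 fold change was -0.01, with a 95% interval from -0.52 to 0.51. The widest intervals were those of Dbp, from -0.52 to 0.98, and Per3, from -0.85 to 0.46. Dbp was the only member without overlap, at 43.0 and 45.1 FPKM without and 56.8 and 47.3 FPKM with IOP, where 28.6% of all genes were higher without overlap. The comparison shares the 3mo control libraries with that of age, and Per1, at 9.21 and 5.60 FPKM without and 7.54 and 7.92 FPKM with IOP, turned from 0.10 to -0.10 with median-of-ratios size factors and to -0.08 with quantile normalization.

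At 18mo, 0 of 9 members were called and none had an unadjusted p under 0.05 by limma, against 0.124% and 9.45% of all genes. Nr1d1 had 74.8 and 78.8 FPKM without and 72.8 and 74.9 FPKM with IOP, a log2 fold change of -0.06 with a 95% interval from -0.57 to 0.46. Cry1, at 12.5 and 11.4 FPKM without and 11.4 and 11.3 FPKM with IOP, had the narrowest interval, from -0.43 to 0.29. Dbp had the lowest log2 fold change, -0.44 (95% interval -1.19 to 0.32), which rested on 18mo IOP replicate 2 at 30.9 FPKM beside 66.0 FPKM in replicate 1 and turned to 0.11 without it. Per1 was higher without overlap, and Per3 and Cry1 were lower, against 36.5% and 9.89% of all genes. Per1, with a log2 fold change of 0.08, turned to -0.05 with median-of-ratios size factors and to -0.08 with quantile normalization. The comparison shares the 18mo control libraries with that of age. No member's response to IOP differed between the ages in the interaction test, where 0% of all genes were called by limma and 1.59% (218 genes) had an unadjusted p under 0.05, and the interaction of Dbp was -0.67 (95% interval -1.73 to 0.40, limma adjusted p = 1) and -0.125 without 18mo IOP replicate 2. Arntl had log2 fold changes after IOP of 0.12 at 3mo and 0.01 at 18mo, and both turned negative with either rescaling.

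After recurring IOP no member was called, but most lay lower. Of the 13718 genes tested 5.45% were called higher and 0.693% lower, and 0 of 9 members in either direction, with 0 at an unadjusted p under 0.05 in limma where 15.4% of all genes had one. Still, 8 of the 9 members had log2 fold changes below 0, and their median was -0.23 against 0.10 for all genes. Per2, Per3, Cry1, Cry2 and Nr1d1, 5 of the 9 tested, were lower without overlap, where 12.7% of all genes were. Cry1 had 10.4 and 8.57 FPKM in 4xIOP control and 6.55 and 7.06 FPKM in 4xIOP retinas, a log2 fold change of -0.44 (95% interval -0.91 to 0.02, limma adjusted p = 0.35). Nr1d1 had 11.2 and 13.4 FPKM in control and 9.66 and 8.22 FPKM in 4xIOP retinas, also -0.44 (95% interval -0.92 to 0.05, limma adjusted p = 0.411). The groups of these genes lay apart by less than the fit could call.

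The other members of the recurring-IOP experiment were as follows. Per2 had 2.19 and 2.33 FPKM in control and 2.08 and 1.31 FPKM in 4xIOP retinas, and its log2 fold change was -0.35, with 4xIOP replicate 2 the lowest library. Without that library it was -0.095, and without 4xIOP replicate 1 it was -0.61. Per3 had 11.1 and 12.1 FPKM and then 10.4 and 9.28 FPKM, and Cry2 13.1 and 13.6 FPKM and then 12.3 and 10.2 FPKM. Both genes were lower in both libraries of 4xIOP retinas, with log2 fold changes of -0.23 and -0.24, which were -0.15 and -0.12 without 4xIOP replicate 2. Dbp was flat, at 29.6 and 31.1 FPKM in control and 30.0 and 29.3 FPKM in 4xIOP retinas, with a 95% interval from -0.58 to 0.52 around -0.03. Per1 (-0.18), Nr1d2 (-0.05) and Clock (0.05) overlapped between the groups, and Clock turned to -0.08 with median-of-ratios size factors and to -0.06 with quantile normalization. Npas2 had 0.0970 and 0.153 FPKM in control and 0.163 and 0.290 FPKM in 4xIOP retinas, from 16 to 51 reads. Arntl had 18.3 and 20.6 FPKM in control and 14.8 and 20.1 FPKM in 4xIOP retinas, a log2 fold change of -0.17 (95% interval -0.71 to 0.38).

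Cell markers moved with recurring IOP too, where 5.45% of all genes tested were called higher and 0.693% lower. Summed rod markers were 9648 to 10100 FPKM in control and 4768 to 7162 FPKM in 4xIOP retinas, microglia and leukocyte markers 3.32 to 3.34 FPKM and 29.3 to 34.1 FPKM, and lens markers, with Mip at 0 in both control libraries, 0.511 to 4.30 FPKM and 41.6 to 94.5 FPKM. Of the 8 rod markers 0 were called. Of the microglia and leukocyte markers 5 of 6 and of the lens markers 4 of 4 tested were called higher. All 3 tested markers of retinal pigment epithelium were called lower, with a sum of 26.6 to 35.9 FPKM in control and 2.77 to 5.94 FPKM in 4xIOP retinas, and so were 3 of 6 cone markers, with 485 to 496 FPKM and 165 to 237 FPKM. The part of cell makeup in the lower levels of the clock genes was not tested. Of 11 glucocorticoid-responsive genes tested, the metallothionein genes Mt1 and Mt2 were called higher (log2 fold changes 2.71 and 3.48) and Dusp1 lower (-1.26). Mt1 and Mt2 respond to glucocorticoids and metals. Of 7 early genes tested, Junb (1.67) was called higher. Of 10 tested genes of photoreception, dopamine and peptide signaling, 0 were called. The call of Mt1 was lost without 4xIOP control replicate 1 (limma adjusted p = 0.066).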

How the data were processed

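Poly(A)-enriched, strand-specific libraries of bulk retina were sequenced by the authors, aligned to mm10 with STAR 2.7.8a and counted with HOMER, per the labels and the study's methods, taking unique exonic tags by strand and 1 isoform for each locus. The deposited values are FPKM, in a table of 8 libraries for single IOP and a table of 4 for recurring IOP, normalized separately, so that no test crosses the tables. Replicates were not pooled. The authors' own calls came from DESeq2 and were not used here.

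FPKM are not counts. Genes whose mean over the table reached 0.5 FPKM were tested as log2(FPKM + 0.5) by limma 3.58.1 under R 4.3.3 (eBayes with trend), a scale that understates fold changes of low genes. All 8 single-IOP libraries entered 1 fit of 4 groups, which leaves 4 residual degrees of freedom, and the 4 recurring-IOP libraries another, which leaves 2. Npas2 was under the filter in both tables. Mapped tags were recovered from the steps of the values, and at least 99.96% of the values checked came within 0.1 of a whole read. Limits from reads cover counting error only. The steps were tested on simulated data.

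Whether libraries of a group came from separate animals was not stated in the labels. The study calls them biological replicates, with RNA taken from the retina of each eye. The p-values measure the spread between these libraries. Same-numbered control and IOP libraries deviated from their group means with correlations of -0.275, -0.53 and -0.29, so numbers were not taken as pairs. The genes named are all 10 members, Arntl, and from each other list up to 6 genes called in a comparison, by size of change. Bhlhe41, Timeless and, in IOP retinas, Crem fall outside that rule and were named after their values were seen. The members and lists were chosen with earlier results of these data known. Coordinates are those of mm10.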

Additional observations from a re-analysis of the deposited data

How the results depend on the processing

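The alternatives were pseudocounts of 0.1 and 1, no filter or a floor of 2 FPKM in the mean, median-of-ratios and quantile scaling, eBayes without a trend, only the 2 groups compared, the adjusted p alone, the length trend removed (spline with 5 degrees of freedom), voom on recovered reads, a replicate block, and each library left out, where the lone library of a group is assumed to vary like the others. Crossed replicate numbers were added after seeing the data. The 3 members called with age in control retinas became 1 with the length trend removed and 1 to 4 with a library left out. The 2 called in IOP retinas became 1 with the length trend removed, 4 with the adjusted p alone and 0 to 3 with a library left out. In IOP retinas 42.6% of all genes tested passed the adjusted p alone. Under the other alternatives the counts of members called with age stayed within 1.5 times. After single or recurring IOP and in the interaction 0 members were called under all. Nr1d1 was called with age in control retinas under all 16 alternatives, with log2 fold changes from 1.13 to 1.83, and in IOP retinas under 15 of 16. In the comparisons of IOP the replicate block took same-numbered control and IOP libraries as pairs, and 0 members were called. In those of age the block was the replicate number over all 4 groups, which makes no pairs of animals, and 3 and 2 members were called. Over all genes the block gave 20 higher and 0 lower calls after IOP at 3mo and 0 in either direction at 18mo, and crossed numbers 298 and 14 at 3mo and 298 and 8 at 18mo, against 78 and 1 and 16 and 1.

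Signs turned only among log2 fold changes that were not called. With median-of-ratios scaling the values were -0.10 for Per1 and -0.089 for Arntl after IOP at 3mo, -0.049 for Per1 and -0.12 for Arntl after IOP at 18mo, -0.081 for Clock after recurring IOP. With quantile normalization the values were 0.20 for Nr1d2 with age in control retinas, 0.25 for Nr1d2 and 0.19 for Dbp with age in IOP retinas, -0.083 for Per1 and -0.053 for Arntl after IOP at 3mo, -0.079 for Per1 and -0.16 for Arntl after IOP at 18mo, -0.059 for Clock after recurring IOP. With the length trend removed the values were 0.064 for Dbp with age in IOP retinas, 0.088 for Clock after IOP at 3mo, 0.018 for Per2, 0.014 for Cry2, 0.088 for Clock and 0.009 for Nr1d2 after IOP at 18mo, 0.006 for Nr1d2 after recurring IOP. The ranges with a library left out were, with age in control retinas, -0.091 to 0.038 for Cry1. With age in IOP retinas they were -0.13 to 0.047 for Cry1, -0.25 to 0.048 for Nr1d2 and -0.74 to 0.35 for Dbp. After IOP at 3mo they were -0.55 to 0.11 for Per2, -0.65 to 0.25 for Per3, -0.34 to 0.075 for Clock, -0.32 to 0.31 for Nr1d1, -0.24 to 0.43 for Per1, -0.11 to 0.66 for Cry2 and -0.14 to 0.032 for Cry1. After IOP at 18mo they were -0.12 to 0.055 for Clock, -0.27 to 0.17 for Per2, -0.21 to 0.17 for Cry2, -0.19 to 0.22 for Arntl, -0.18 to 0.11 for Nr1d2 and -0.98 to 0.11 for Dbp. After recurring IOP they were -0.28 to 0.18 for Nr1d2, -0.18 to 0.28 for Clock, -0.067 to 0.004 for Dbp, -0.38 to 0.046 for Arntl and -0.38 to 0.021 for Per1. For the interaction it was -0.68 to 0.089 for Cry2.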

Other observations

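Over the 8 single-IOP libraries, the genes outside the members whose pattern was most like the mean of Per1, Per2, Per3, Nr1d1, Nr1d2 and Dbp were Fmn1 (Pearson r = 0.991), Synj2 (0.988), Tmcc2 (0.988), Nup210 (0.986) and Dock3 (0.985), and 547 of 13722 genes had an r over 0.9. These values are a description over libraries that share age, transcript length trend and cell makeup. Among the members, Per1 followed Nr1d1 (r = 0.991) and Per2 followed Per3 (r = 0.978) over these libraries, while Cry1 was at -0.404 with Cry2 and Nr1d1 at -0.475 with Nr1d2. Clock and Nr1d2, the members that were lower without overlap in old control retinas, had an r of 0.861.

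The untreated eyes of the recurring-IOP experiment, from mice aged 3 months at its start, had levels of several clock genes outside those of the 3mo control retinas, in a table normalized separately and therefore without a test. Nr1d1 was at 11.2 and 13.4 FPKM there and at 34.9 and 22.2 FPKM in 3mo control, Dbp at 29.6 and 31.1 against 43.0 and 45.1 FPKM, and Nr1d2 at 29.6 and 23.3 against 47.9 and 42.8 FPKM. Cry2, at 13.1 and 13.6 FPKM, was above its 8.81 and 4.98 FPKM in 3mo control. Of the mapped tags, 49.6% and 49.7% were in exons in 4xIOP control and 66.0% and 69.5% in 3mo control libraries. FPKM are scaled to mapped tags, so a smaller share in exons lowers the levels of genes in general. The 23 other clock genes summed to 248 to 256 FPKM in 4xIOP control and 337 to 374 FPKM in 3mo control. The part of this scaling in the lower levels was not tested. The ratio of Nr1d1 to Arntl, which does not depend on the scaling of a library, was 0.612 and 0.648 there, 1.15 and 0.830 in 3mo control and 1.82 and 2.34 in 18mo control retinas. The hour of collection was not given in the sources used here for any of these groups.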
